A study of Mus musculus with 27 samples.

Results

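Tibialis anterior muscles taken 21 days after volumetric muscle loss (VML) were compared with muscles taken at 7 days, to follow the injured tissue from the first to the third week. The comparison used 5 samples of day 21 and 6 samples of day 7, that is 11 of the 27 samples of the series, and the genes that reached an FPKM of 0.5 in 5 or more of the 27 samples, which were 14630 of the 54532 genes in the table. All mice were C57BL/6 males of 8 weeks, and those of both time points had lost 40% of the muscle by excision, described as unilateral in the public record and as bilateral in the methods of the study. No drug, graft or transgene was named for either group, and the 5 uninjured samples are given below only as a reference level. Nothing in the labels ties a sample to a mouse, so the tests measure the spread between samples, which could include 2 muscles of the same animal.

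In the uninjured limb this muscle is made mostly of fast fibres. After ordinary damage, macrophages clear debris, fibroblasts lay down a temporary matrix rich in fibronectin and collagen, and satellite cells rebuild the fibres while nerve contacts are restored. VML removes the fibres together with their basement membrane and stem cells, and the defect is known to be filled by scar tissue with only limited new fibre formation.

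The samples carried the defining messages of fast skeletal muscle. Acta1, encoding skeletal alpha-actin, was at 13040.0 to 29740.0 (median 20250.0) FPKM at day 7 and 18780.0 to 36000.0 at day 21. FPKM divides the reads of a gene by its length and by a library size set by the authors, so that levels can be compared between genes. The muscle creatine kinase Ckm was at 1401 to 4715 (median 2081) FPKM at day 7 and 1606 to 3483 at day 21, and Mylpf and Tnnt3, which encode a fast myosin light chain and fast troponin T, were at no less than 4075 and 3411 FPKM in any sample. The libraries held 14391736 to 24436763 reads assigned to genes, and messages of the mitochondrial genome made up 7.94% to 28.4% of them at day 7 and 11.1% to 35.1% at day 21. The samples are bulk tissue, in which fewer cells of a type and less RNA of that type per cell cannot be told apart.

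The day 7 samples were far less alike than those of day 21. On the first principal component of all 27 samples the 5 samples of day 21 spanned -25.4 to -15.2, and the 6 of day 7 spanned -22.3 to 72.4. Replicate 5 of day 7 lay at the far end, and replicates 3 and 6 of day 7 lay among the samples of day 21, at -19.9 and -22.3. Across genes, replicates 2, 3 and 6 of day 7 also correlated more with the samples of day 21 than with the rest of their own group, for example 0.947 against 0.912 for replicate 6. The standard deviation of log2(FPKM + 1) was larger at day 7 than at day 21 in 66.8% of the tested genes, with medians over genes of 0.334 and 0.252. Counts below are therefore also given without single samples of day 7 where these moved them, and a further version without replicates 5 and 6, which had the lowest correlation with the rest of their group, was added after the values had been seen.

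With limma, 329 of the 14630 genes differed between the time points at a Benjamini-Hochberg adjusted p under 0.05, which is 2.25% of those tested. Of these, 256 (1.75%) were lower at day 21 and 73 (0.499%) were higher. Among them 117 fell and 22 rose by more than 2-fold on the log2(FPKM + 1) scale, on which every fold change below is given as day 21 minus day 7. In 177 of the 329 genes the samples of day 21 lay wholly outside the range of day 7, 137 lower and 40 higher. Over all tested genes this held for 346 (2.37%), 242 lower (1.65%) and 104 higher (0.711%). An unadjusted p under 0.05 was reached by 3168 genes (21.7%), 1784 (12.2%) lower and 1384 (9.46%) higher. These shares of all genes are the reference for every list count below.

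The split between lower and higher depended on how the samples were scaled. Median-ratio scaling gave 259 lower and 72 higher genes, and quantile normalization gave 211 lower and 114 higher. Bringing every sample to the same FPKM total, as in TPM, gave 784 lower and 16 higher genes and shifted the median log2 fold change of all genes by -0.361, so changes below are relative to the deposited scaling. The library size behind the FPKM was 0.810 to 1.44 times the sum of reads at day 7 and 0.776 to 0.964 times at day 21. Its part in the counts was not tested on its own, and the voom fits below used the same library size. When only the 11 samples entered the fit, with no estimate of spread from the other 3 groups, 19 genes passed, 13 lower and 6 higher, and 2162 had an unadjusted p under 0.05. Of the gene lists below, that fit called 4 matricellular, 1 collagen, 2 clock, 1 small leucine-rich proteoglycan and 1 TGF-beta and activin pathway gene. It called 0 genes of the collagen processing, protease, macrophage, complement and chemokine lists.

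**Figure D1:**
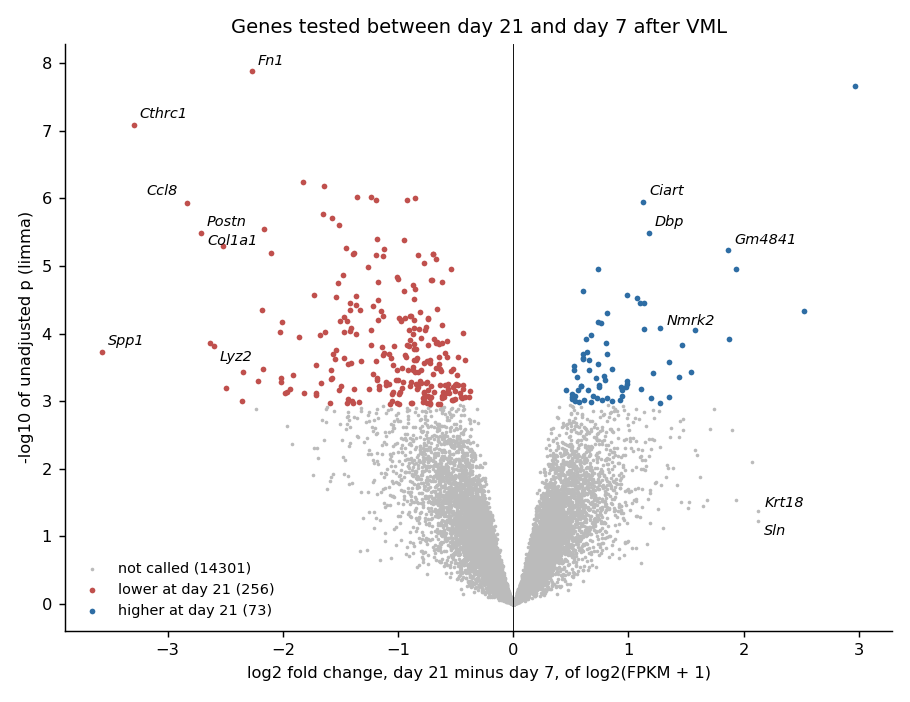
Each point is 1 of 14630 genes, with the log2 fold change between day 21 and day 7 on the x axis and the negative log10 of the unadjusted limma p on the y axis. Red points are the 256 genes called lower at day 21 and blue points the 73 called higher; Spp1, Cthrc1 and Ccl8 stand at the far left, whereas Sln and Krt18 lie far to the right without being called.

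Many genes of the extracellular matrix fell. Cthrc1, which encodes a secreted protein of activated fibroblasts (ENSMUSG00000054196, chr15:39076932-39087121), was at 2.72, 1.65, 2.55, 0.752 and 0.113 FPKM in the 5 samples of day 21 and at 7 to 31.1 (median 27.1) at day 7. All samples of day 21 were below all samples of day 7, and the gene fell more than any other protein-coding gene apart from Spp1 (log2 fold change -3.29 ± 0.45 SE, adjusted p = 0.000401). It stood at 0.37 ± 0.52 FPKM (SD, n = 5) in uninjured muscle, and its lowest value, in replicate 5 of day 21, rested on 2 reads.

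Fibronectin, the adhesive protein of the provisional matrix, followed the same course. Fn1 (ENSMUSG00000026193, chr1:71585520-71653200) measured 5.05, 7.12, 9.12, 4.62 and 7.28 FPKM at day 21 and 20.1 to 52 (median 36.3) at day 7, without overlap, and had the smallest p of all protein-coding genes (log2 fold change -2.27 ± 0.28 SE, adjusted p = 0.000162). An exact two-sided permutation test over all 462 divisions of the 11 samples gave p = 0.00216, the smallest it can give. The mean at day 21, 6.64 ± 1.83 (SD, n = 5), stood beside 3.02 ± 1.11 (SD, n = 5) in uninjured muscle.

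Periostin, a matricellular protein that helps collagen fibrils form, was read from Postn at 4.99, 7.6, 7.67, 3.89 and 6.87 FPKM at day 21 against 11.3 to 98.5 (median 53.7) at day 7 (log2 fold change -2.71 ± 0.46 SE, adjusted p = 0.00267). The Wnt modulator Sfrp2 was at 0.458 to 2.27 FPKM at day 21 and 4.03 to 25.5 (median 11.2) at day 7 (log2 fold change -2.52 ± 0.44 SE, adjusted p = 0.00327). Neither gene overlapped between the time points. Tnc, the gene of tenascin-C, also fell without overlap (log2 fold change -1.73, adjusted p = 0.00757), and Thbs2, of thrombospondin 2, fell while replicate 6 of day 7 reached into the range of day 21 (log2 fold change -1.64, adjusted p = 0.00144). In all, 11 of the 28 tested matricellular and provisional matrix genes fell and none rose under limma, against 1.75% and 0.499% of all genes. The list median was -0.76 against -0.02 for all genes. At an unadjusted p under 0.05, 19 were lower and 0 higher, against 12.2% and 9.46% of all genes. Voom weights on the reads called 10. Sparc, the most abundant of those that fell, went from 343 ± 104 (SD, n = 6) to 191 ± 26.8 FPKM (SD, n = 5; log2 fold change -0.80, adjusted p = 0.0279). Its call was lost in 6 of the 11 fits without 1 sample. Leaving out 1 sample at a time gave 7 to 18 called members, the fewest without replicate 4 of day 7 or replicate 1 or 4 of day 21 and the most without replicate 6 of day 7.

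Of 25 tested collagen genes, 11 fell, against 1.75% of all genes, and none rose. The list median was -0.92, and voom called the same number. Col1a1, encoding the main chain of collagen I (ENSMUSG00000001506, chr11:94936224-94953042), was at 60.5, 66.6, 80.6, 39.4 and 68.5 FPKM at day 21 and 110.1 to 583 (median 276) at day 7. Even its lowest day 7 sample, replicate 6, was above the highest sample of day 21 (log2 fold change -2.11 ± 0.37 SE, adjusted p = 0.00327). Col1a2 and Col3a1, which supply the partner chain of collagen I and the chain of collagen III, stood at 127 ± 50.7 and 205 ± 92.2 FPKM at day 7 (SD, n = 6) and at 40.9 ± 9.29 and 59.6 ± 14.1 at day 21 (SD, n = 5). Both fell without overlap (log2 fold change -1.54 and -1.68), as did Col5a2, of the collagen V that regulates fibril width (log2 fold change -1.65, adjusted p = 0.00189). The other collagen genes that fell were Col5a1, Col14a1, Col16a1, Col18a1, Col6a1, Col5a3 and Col12a1. Between 9 and 14 members were called when any 1 sample was left out, and 1 when only the 2 compared groups entered the fit.

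Col4a2, which encodes a basement membrane collagen, was not called. It was at 44.4, 37.1, 42.8, 35.5 and 46.7 FPKM at day 21 and at 13.8 to 52.7 (median 39.9) at day 7, where replicates 3 and 6 lay below every day 21 sample, replicate 4 above and the others among them (log2 fold change 0.35 ± 0.27 SE, adjusted p = 0.459). Col24a1, a fibrillar collagen of low abundance, was at 1.89, 1.53, 0.618, 0.917 and 5.04 FPKM at day 21 and 0.222 to 1.23 (median 0.5) at day 7. Its difference of 0.79 did not pass (adjusted p = 0.0825), and the highest value came from replicate 5 of day 21.

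Enzymes that cross-link and fold collagen fell with their substrate genes. Lox, encoding the lysyl oxidase that starts cross-linking, was at 2.91, 3.44, 3.24, 1.77 and 1.9 FPKM at day 21 and 5.97 to 30.4 (median 10.3) at day 7, without overlap (log2 fold change -1.83 ± 0.28 SE, adjusted p = 0.00144). Its relative Loxl1 fell as well (log2 fold change -1.42, adjusted p = 0.00867). P4ha3, a prolyl hydroxylase subunit, was at 0.321, 0.287, 0.418, 0.0425 and 0 FPKM at day 21, where replicate 5 had no read, and at 0.947 to 3.26 (median 1.81) at day 7 (log2 fold change -1.19 ± 0.19 SE, adjusted p = 0.00144). All 20 collagen processing genes had a lower mean at day 21, with a median of -0.74. Of these, 17 were lower at an unadjusted p under 0.05, against 12.2% of all genes, and 9 were called, against 1.75%. Leaving out replicate 4 of day 7, or replicate 1 or 4 of day 21, lowered the count to 4, and leaving out replicate 6 of day 7 raised it to 14. Fkbp10, a collagen chaperone, is among those lost when 1 of several samples is left out, and 2504 bases of it overlap with Nt5c3b on the other strand, which these unstranded libraries cannot separate.

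Some proteoglycan and protease genes fell too. Ogn, encoding the small proteoglycan osteoglycin, was at 6.44, 6.67, 7.97, 5.08 and 7.68 FPKM at day 21 and 11.1 to 22.6 (median 15.8) at day 7, without overlap (log2 fold change -1.19 ± 0.21 SE, adjusted p = 0.00327), and its mean at day 21 lay next to the 7.1 ± 2.51 (SD, n = 5) of uninjured muscle. Biglycan (Bgn) was the other of 11 small leucine-rich proteoglycans to fall (log2 fold change -1.47, adjusted p = 0.0113). Among 26 matrix proteases and inhibitors 6 fell, against 1.75% of all genes, namely Mmp3, Ctsk, Adam12, Mmp23, Mmp14 and Mmp19. Adam12, a membrane protease of regenerating and fibrotic muscle, dropped from 1.98 ± 1.02 (SD, n = 6) to 0.198 ± 0.102 FPKM (SD, n = 5; log2 fold change -1.23 ± 0.19 SE, adjusted p = 0.00144). The collagenase Mmp14 was at 10.7, 10.2, 8.04, 11 and 13.3 FPKM at day 21 and 8.6 to 41.6 (median 24.8) at day 7. Replicate 6 of day 7 lay within the range of day 21, and the call just passed (log2 fold change -1.05 ± 0.28 SE, adjusted p = 0.0469); it was lost when any of 9 samples was left out singly. Timp2, the inhibitor that binds MMP14 at the cell surface, was at 55.6 ± 24.3 FPKM at day 7 (SD, n = 6) and 29.2 ± 1.61 at day 21 (SD, n = 5) and did not pass (log2 fold change -0.78, adjusted p = 0.0719). Without 1 sample, 3 to 14 protease genes were called.

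Of 27 genes of the TGF-beta and activin pathway, a main inducer of matrix production, 2 fell, against 1.75% of all genes. Fstl1, a secreted binding protein, was at 11, 16.7, 16, 14 and 12.1 FPKM at day 21 and 22.4 to 51.8 (median 45.3) at day 7, without overlap (log2 fold change -1.45 ± 0.26 SE, adjusted p = 0.00327), while the receptor Tgfbr2 passed narrowly (log2 fold change -0.79, adjusted p = 0.0484) and was called in only 2 of the 11 fits without 1 sample. Pdgfra, the surface marker of fibro-adipogenic progenitors, from which matrix-producing cells of muscle arise, was the only gene of its list of 15 that fell (log2 fold change -0.60, adjusted p = 0.037), and its call was lost in 7 of the 11 fits without 1 sample. The list median was 0.06. Twist1, a transcription factor of mesenchymal cells, fell without overlap (log2 fold change -1.19, adjusted p = 0.00307), and so did the growth factor pleiotrophin, Ptn (log2 fold change -1.86, adjusted p = 0.0151).

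**Figure D2:**
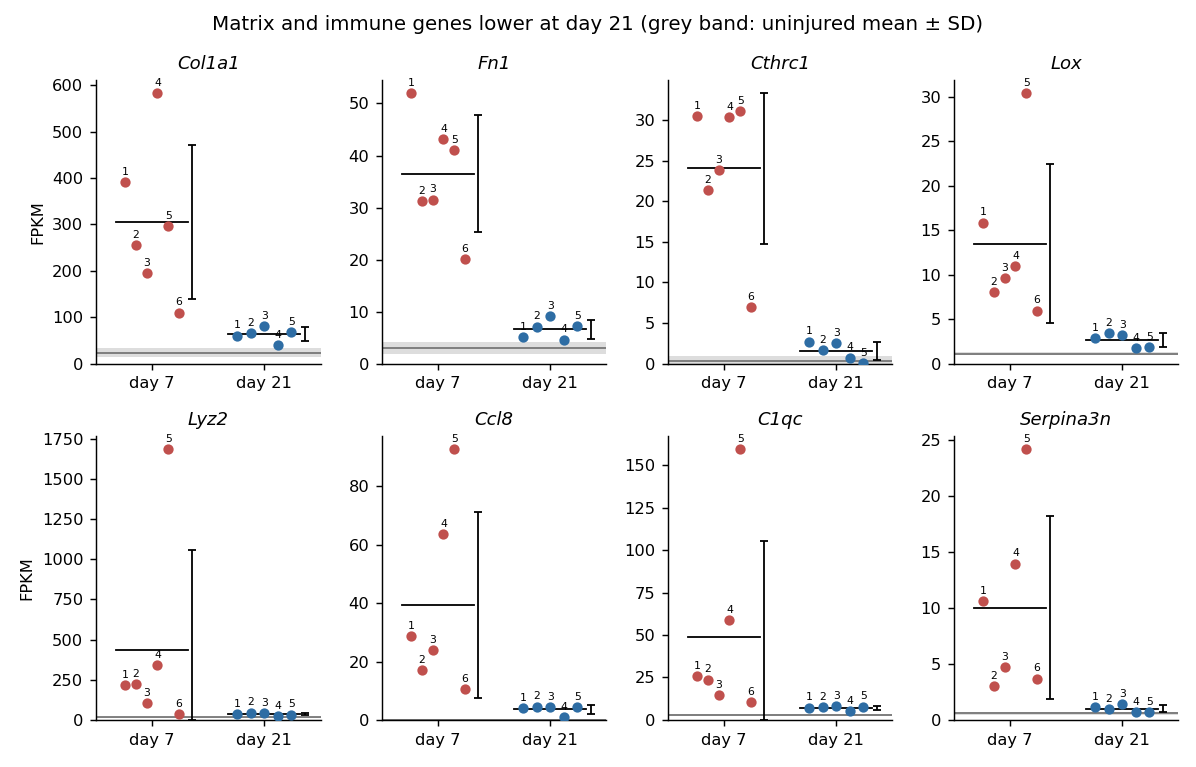
FPKM on the y axis for 8 genes that fell, with 1 numbered point per sample for the 6 samples of day 7 (red) and the 5 of day 21 (blue), a bar at the mean, an error bar of 1 SD (stopped at 0) and a grey band for the uninjured mean ± SD (n = 5). Col1a1, Fn1, Cthrc1 and Lox are separated in all samples, while in Lyz2 replicate 5 of day 7 reaches 1682 and replicate 6 of day 7 lies among the samples of day 21.

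Macrophage and complement genes also fell, and in several of them replicate 5 of day 7 stood far above the other samples. Spp1, encoding osteopontin, a secreted protein of macrophages in injured and scarring tissue (ENSMUSG00000029304, chr5:104435118-104441050), was at 1.04, 4.38, 1.77, 2.06 and 1.41 FPKM in the 5 samples of day 21. At day 7 it was at 28.6, 27.6, 7.55, 23.5, 493 and 20.1 in replicates 1 to 6. Every day 7 sample exceeded every day 21 sample, and replicate 5 was far above the rest. The gene had the largest decrease of all (log2 fold change -3.57 ± 0.82 SE, adjusted p = 0.0205), and its call was lost with voom weights, without a filter and without replicate 1 of day 21. The mean at day 21, 2.13 ± 1.31, lay beside the 2.51 ± 1.9 of uninjured muscle (SD, n = 5 each).

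Lyz2, the lysozyme of myeloid cells, was at 36.2, 45.5, 40.9, 24.3 and 32.5 FPKM at day 21 and at 217, 224, 104, 338, 1682 and 36.7 in replicates 1 to 6 of day 7. Replicate 6 of day 7 fell inside the range of day 21, replicate 5 was far above the next sample, and the gene was called (log2 fold change -2.60 ± 0.59 SE, adjusted p = 0.0176). The adaptor genes Tyrobp and Fcer1g, which carry the signals of Fc and related receptors, fell by 2.22 and 1.91 on the log2 scale, calls lost in 7 and 6 of the 11 fits without 1 sample. The lysosomal gene Laptm5 fell too (log2 fold change -1.97, adjusted p = 0.0406), with the call lost when any of 8 samples was left out. Of 23 tested macrophage genes 7 fell (the others were Aif1, Cd14 and Mrc1), against 1.75% of all genes, and the median was -1.19. At an unadjusted p under 0.05, 17 were lower and 0 higher, against 12.2% and 9.46% of all genes. The count of called genes rested on single samples. It was 0 without replicate 4 of day 7 or replicate 4 of day 21, 15 without replicate 6 of day 7, 11 without replicates 5 and 6 of day 7, and 1 with voom weights. Spi1, the myeloid master transcription factor, was separated in all samples, at 0.296 to 1.73 FPKM at day 21 against 2.24 to 38.5 (median 4.03), yet did not pass (log2 fold change -1.63, adjusted p = 0.0535).

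Of 18 genes of scar-associated macrophages 4 fell, against 1.75% of all genes, namely Spp1, Apoe, Trem2 and Ctsk, and voom called 2. The count was 1 without replicate 1 of day 21, 2 without replicate 4 of day 7 or replicate 4 or 5 of day 21 and 8 without replicate 6 of day 7. Apoe, of the lipid carrier apolipoprotein E, was at 86.8, 86, 82.7, 69.8 and 108 FPKM at day 21 and 104 to 1622 (median 374) at day 7 and was called without any 1 sample (log2 fold change -2.18 ± 0.45 SE, adjusted p = 0.0101). Trem2, a lipid-sensing receptor, was at 0.0724 to 0.638 FPKM at day 21 and 0.438 to 34.1 (median 3.44) at day 7, and replicate 6 of day 7 overlapped (log2 fold change -2.01, adjusted p = 0.0334). Its call was lost in 7 of the 11 fits without 1 sample and with voom weights, and that of Ctsk in 5 of the 11. The secreted Wfdc17, also a myeloid product, fell without overlap (log2 fold change -2.64, adjusted p = 0.0172), though voom weights did not call it.

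The complement list lost expression in 6 of 17 tested genes, against 1.75% of all genes, and voom called 6. C1qa, C1qb and C1qc encode the 3 chains of C1q, which opens the classical cascade and is made by macrophages. C1qc was at 7.18, 7.47, 8.12, 5.03 and 7.79 FPKM at day 21 and 10.5 to 159 (median 24.8) at day 7, with no overlap and a fall from 48.7 ± 56.8 (SD, n = 6) to 7.12 ± 1.22 (SD, n = 5; adjusted p = 0.0115). In C1qa and C1qb replicate 6 of day 7 lay within the day 21 range (log2 fold change -1.82 and -2.17). Their calls were lost in 8 and 4 of the 11 fits without 1 sample. C3, the central component, had a different spread, with 10.02, 3, 11.9, 10.5, 6.58 and 5.66 FPKM in day 7 replicates 1 to 6 and 2.22, 2.5, 1.84, 2.6 and 1.76 at day 21 (log2 fold change -1.39 ± 0.25 SE, adjusted p = 0.00327). Replicate 5 was not its highest day 7 sample, and the day 21 mean of 2.19 ± 0.378 lay near the uninjured 1.7 ± 0.837 (SD, n = 5 each). Between 3 and 7 genes of the list were called when any 1 sample was left out.

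Of 33 tested chemokines, cytokines and receptors, which guide leukocytes into tissue, 5 fell, against 1.75% of all genes, and none rose. Ccl8 was at 4.06, 4.56, 4.32, 1.04 and 4.38 FPKM at day 21 and 28.8, 17.1, 23.9, 63.6, 92.6 and 10.7 in replicates 1 to 6 of day 7, without overlap and with its call kept in every fit lacking 1 sample (log2 fold change -2.83 ± 0.45 SE, adjusted p = 0.00144). Ccl6, Ccl9 and Ccl12 fell by 2.01, 1.52 and 1.41 on the log2 scale, with 2 day 21 samples at 0 reads for Ccl12, and Il33, of an alarmin cytokine, was the last of the group. The calls of Ccl6, Ccl9 and Ccl12 were lost in 5, 6 and 4 of the 11 fits without 1 sample. Voom called 3 genes of the list but neither Ccl6 nor Ccl9. The receptor Ccr2 was separated in all samples but did not pass (log2 fold change -0.92, adjusted p = 0.0758). Leaving out replicate 4 or 5 of day 21 gave 2 calls, and leaving out replicate 3 or 6 of day 7 gave 12.

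In the list of monocyte and neutrophil genes, 2 of 15 fell, against 1.75% of all genes, and 0 were called by voom. At an unadjusted p under 0.05, 10 were lower, against 12.2% of all genes. Hp, encoding haptoglobin, was at 6.72, 1.54, 5.31, 0.663 and 6.64 FPKM at day 21 and 19.96, 2.3, 41.8, 51.1, 20.4 and 36.8 in day 7 replicates 1 to 6, so that replicate 2 of day 7 overlapped (log2 fold change -2.36, adjusted p = 0.0469). S100a8, a subunit of the neutrophil protein calprotectin, was at 0 reads in replicates 4 and 5 of day 21 and overlapped in replicates 3 and 6 of day 7 (log2 fold change -2.35, adjusted p = 0.0288). The count of this list was 0 without replicate 1, 4 or 5 of day 7 or replicate 4 or 5 of day 21, 5 without replicate 3 of day 7 and 7 without replicate 6 of day 7. The call of Hp was lost in 9 of the 11 fits without 1 sample and that of S100a8 in 6. Serpina3n, an acute-phase protease inhibitor, was more even, at 1.18, 0.983, 1.45, 0.677 and 0.694 FPKM at day 21 and 3.02 to 24.2 (median 7.66) at day 7 (log2 fold change -2.16 ± 0.36 SE, adjusted p = 0.00262).

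No gene of antigen presentation or of the interferon response was called by limma or by voom. Of 13 MHC class II and dendritic cell genes, 9 were lower at an unadjusted p under 0.05, with a median of -0.68, and 8 were called without replicate 6 of day 7 and 3 without replicate 3 of day 7. Cd74, the class II chaperone, was at 176 ± 118 FPKM at day 7 (SD, n = 6) and 75.1 ± 10.8 at day 21 (SD, n = 5), with replicate 3 of day 7 inside the range of day 21 and replicate 6 below it (log2 fold change -0.91, adjusted p = 0.163). Of 26 interferon genes 10 were lower at that level. Ifi27l2a showed the largest difference, -1.42 (adjusted p = 0.0887), and replicates 1 and 2 of day 7 lay within the range of day 21. Of 26 lymphocyte genes only 10 were expressed highly enough to test and none was called by either method, with 3 higher and 1 lower at an unadjusted p under 0.05. Of all genes, 9.46% were higher and 12.2% lower at that level.

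Of 44 cell cycle genes, 2 fell, Cdk1 and Kif11, against 1.75% of all genes, with 0 under voom. A lower mean at day 21 was found in 43, and 25 were lower at an unadjusted p under 0.05, against 12.2% of all genes. Cdk1, the kinase that drives entry into mitosis, was at 0.312, 0.137, 0.641, 0.0944 and 0.0545 FPKM at day 21 and 1.4, 1.65, 0.857, 1.49, 8.56 and 0.553 in day 7 replicates 1 to 6 (log2 fold change -1.16 ± 0.30 SE, adjusted p = 0.039). Replicate 5 held the highest value and replicate 6 overlapped with day 21, and the number of called members was 11 without replicate 6 of day 7, 10 without replicate 3 of day 7, and 0 without replicate 1 or 4 of day 7 or any of replicates 1, 2, 4 and 5 of day 21. Cdkn2c, an inhibitor of CDK4 and CDK6 that is induced as myoblasts leave the cycle, fell from 5.36 ± 0.971 (SD, n = 6) to 2.33 ± 0.67 FPKM (SD, n = 5; log2 fold change -0.95 ± 0.16 SE, adjusted p = 0.00307), without overlap. Pttg1, the gene of securin, which is outside that list, rose, at 40.4, 46.8, 41, 53.6 and 40.1 FPKM at day 21 and 12.6 to 36.4 (median 20.7) at day 7 (log2 fold change 0.99, adjusted p = 0.0349), with the call lost in 8 of the 11 fits without 1 sample and when samples were brought to the same total.

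Of 14 imprinted genes of fetal and regenerative growth 3 fell, where 1.75% of all genes did. Mest was at 1.13, 1.08, 1.54, 0.506 and 1.09 FPKM at day 21 and 16.9, 7.29, 1.61, 11.6, 11 and 0.529 in day 7 replicates 1 to 6, high in 4 samples, with replicate 6 inside the range of day 21 and replicate 3 just above it (log2 fold change -1.71, adjusted p = 0.0423). Its 912 bases of overlap with Copg2 on the other strand cannot be separated. Grb10, an adaptor that restrains insulin receptor signalling, and the neuronal growth suppressor Ndn fell by 0.93 and 0.57 on the log2 scale, and voom called 2 of the list. The list count was 0 without replicate 4 or 5 of day 7 or replicate 1 or 5 of day 21 and 5 without replicate 6 of day 7, and the call of Mest was lost in 9 of the 11 fits without 1 sample, that of Grb10 in 5 and that of Ndn in 6.

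**Figure D3:**
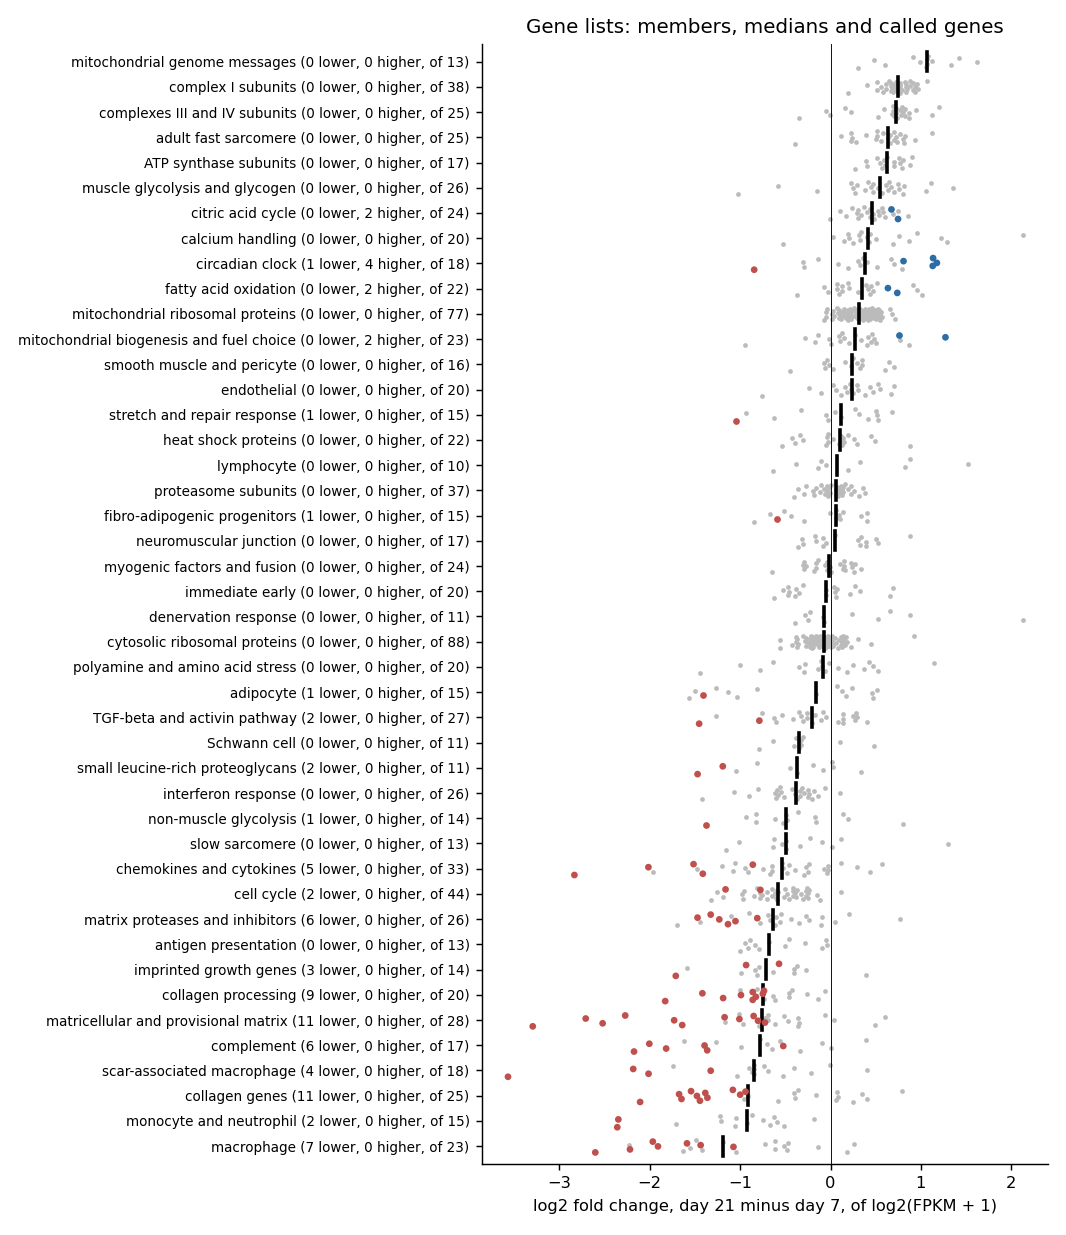
Log2 fold changes between day 21 and day 7 (x axis) for the members of 44 gene lists with at least 10 tested genes; grey points were not called, red points fell and blue points rose, and black bars mark medians. Macrophage, collagen, complement and matrix lists lie to the left with called members, whereas lists of mitochondrial subunits lie to the right with none.

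Several genes of energy metabolism rose. Muscle draws ATP from glycolysis and from mitochondria, which burn pyruvate and fatty acids. Nmrk2, a muscle kinase that makes NAD from nicotinamide riboside (ENSMUSG00000004939, chr10:81198170-81202051), was at 101, 85.8, 118, 63.2 and 58.9 FPKM at day 21 and 15.6 to 47.7 (median 38.2) at day 7, without overlap (log2 fold change 1.27 ± 0.27 SE, adjusted p = 0.0132). Its day 21 level remained below the 210.2 ± 24.1 (SD, n = 5) of uninjured muscle. It shares 3882 bases with the antisense gene Atcayos, which went from 22.6 ± 14.2 (SD, n = 6) to 32 ± 6.52 FPKM (SD, n = 5) and was not called (log2 fold change 0.68, adjusted p = 0.171), and the strands cannot be told apart here.

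Ucp3, a mitochondrial carrier of fasting and fat-burning muscle, was at 20.8, 21.1, 22.1, 16.5 and 27 FPKM at day 21 and 10.7 to 15.3 (median 11.1) at day 7 (log2 fold change 0.76 ± 0.16 SE, adjusted p = 0.0117). Cpt2, which completes the transfer of fatty acids into mitochondria, was at 26.2, 29.2, 31.1, 29.3 and 31.9 FPKM at day 21 and 12.7 to 25 (median 19.1) at day 7 (log2 fold change 0.64 ± 0.14 SE, adjusted p = 0.016). Both were separated in all samples. Mlycd, whose product removes the malonyl-CoA that blocks this transfer, rose as well (log2 fold change 0.74, adjusted p = 0.0116), so that 2 of 22 fatty acid oxidation genes (Cpt2 and Mlycd) and 2 of 23 genes of mitochondrial biogenesis and fuel choice (Ucp3 and Nmrk2) rose, voom calling 2 in each list. Of all genes, 0.499% rose. All 4 genes were below the uninjured mean at day 21, for example Cpt2 with 29.6 ± 2.17 against 43.2 ± 6.11 FPKM (SD, n = 5 each). The 4 calls held without any 1 sample and were lost when every sample was brought to the same total.

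In the citric acid cycle, Ogdh and Idh3g rose among 24 tested genes (log2 fold change 0.67 and 0.75), and 14 were higher at an unadjusted p under 0.05. The shares of all genes were 0.499% and 9.46%. Ogdh, a subunit of the 2-oxoglutarate dehydrogenase complex, was at 150.1, 118, 141, 147 and 111 FPKM at day 21 and 54.4 to 110.0 (median 87.3) at day 7, without overlap. The malate dehydrogenases were not called. Mdh1 was at 193 ± 85.3 FPKM at day 7 (SD, n = 6) and 333 ± 84.6 at day 21 (SD, n = 5; log2 fold change 0.86, adjusted p = 0.0969), and Mdh2 at 177 ± 54.3 and 264 ± 53.7 (log2 fold change 0.60, adjusted p = 0.121). Ndufab1, an acyl carrier protein that is also found in complex I, rose without being on the lists (log2 fold change 0.82, adjusted p = 0.0448). The count of the citric acid cycle was 0 without replicate 1, 4 or 5 of day 7 or replicate 1, 2, 3 or 5 of day 21. Ndufab1 and both cycle genes lost their calls when any of several samples was left out. The medians of the citric acid cycle, fatty acid oxidation and fuel choice lists, 0.46, 0.35 and 0.28, became -0.07, -0.17 and -0.07 when samples were brought to the same total.

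Respiratory chain subunits as lists showed no called member by limma or voom. All 38 tested complex I subunits had a higher mean at day 21, with a median of 0.75, and 32 of them were higher at an unadjusted p under 0.05, against 9.46% of all genes. That threshold was also passed upwards by 18 of 25 subunits of complexes III and IV, 13 of 17 of ATP synthase and 10 of 13 messages of the mitochondrial genome, whose median was 1.07. When samples were brought to the same total the medians of complex I and of the mitochondrial messages were 0.22 and 0.53, and with quantile normalization they were 0.54 and 0.18. Cox8b, a heart and muscle subunit of cytochrome oxidase, was at 2328, 3244, 2440.0, 2735 and 3146 FPKM at day 21 and at 675, 1630.0, 2407, 928, 514 and 3208 in day 7 replicates 1 to 6. The samples that stood against a separation were replicates 3 and 6 of day 7, within or near the range of day 21 (log2 fold change 1.12 ± 0.41 SE, adjusted p = 0.12). Without replicate 6 of day 7, 18 complex I subunits and 9 mitochondrial messages were called, and without replicate 3 of day 7, 7 complex I subunits. Summed over the complex I list, FPKM ran from 3226 to 10260.0 in the day 7 samples, from 9265 to 10980.0 in those of day 21 and from 9675 to 14600.0 without injury.

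Glycolysis breaks glucose down in the cytosol, partly through isoforms made by muscle. Of 26 tested genes of muscle glycolysis and glycogen none was called by limma and 1 was called by voom. At an unadjusted p under 0.05, 11 were higher and 1 lower, against 9.46% and 12.2% of all genes. Pfkfb3, which makes the activator of phosphofructokinase, was at 7.85, 8.31, 3.67, 9.78 and 10.1 FPKM at day 21 and 1.62 to 5.6 (median 3.26) at day 7, replicate 3 of day 21 being low (log2 fold change 1.05, adjusted p = 0.0601). Among 14 non-muscle isoforms Pgam1 fell without overlap (log2 fold change -1.38, adjusted p = 0.039; call lost in 7 of the 11 fits without 1 sample), with 7.79, 7.2, 6.16, 9.2, 37.9 and 5.83 FPKM in day 7 replicates 1 to 6, and voom called none.

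Output genes of the circadian clock rose. The clock is a feedback loop in which BMAL1 and CLOCK bind E-boxes to switch on Per, Cry, Nr1d1, Nr1d2, Dbp and Ciart, and the NR1D proteins in turn repress Arntl, the gene of BMAL1, and Nfil3. Of 18 clock genes 4 rose and 1 fell, against 0.499% and 1.75% of all genes, and voom called 6. These genes are known to cycle within the day, and the hour of dissection is not given in the labels or the methods used here.

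Dbp, a transcription factor at the output of the clock (ENSMUSG00000059824, chr7:45705088-45710203), was at 42.1, 45.7, 42.5, 42.1 and 38.2 FPKM at day 21 and 10.4 to 24.6 (median 19.1) at day 7. The 5 samples of day 21 lay within a narrow band above all of day 7 (log2 fold change 1.18 ± 0.20 SE, adjusted p = 0.00267) and also above the 25.1 ± 2.63 (SD, n = 5) of uninjured muscle. Nr1d1, or REV-ERB alpha, was at 36.7, 29.5, 39.1, 29.9 and 26.6 FPKM at day 21 and 5.68 to 21.4 (median 16.9) at day 7 (log2 fold change 1.13 ± 0.23 SE, adjusted p = 0.00867), below the uninjured 58.4 ± 3.61 (SD, n = 5). It shares 1075 bases with Thra on the other strand, which went from 10.3 ± 0.791 (SD, n = 6) to 13 ± 0.748 FPKM (SD, n = 5) and was not called. Ciart, a repressor of BMAL1 and CLOCK, was at 3.12, 3.06, 3.24, 3.59 and 5.59 FPKM at day 21 and 0.528 to 1.96 (median 1.2) at day 7 (log2 fold change 1.13 ± 0.18 SE, adjusted p = 0.00144), and it shares 3749 bases with the antisense gene C920021L13Rik.

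Nr1d2 was at 16.7, 19.4, 16.6, 20.7 and 29.7 FPKM at day 21 and 7.42 to 16.5 (median 11.4) at day 7, where the highest day 7 sample came just below the lowest of day 21 (log2 fold change 0.81 ± 0.18 SE, adjusted p = 0.0172). Nfil3, which binds the same sites as DBP and represses them, moved the other way, at 5.56, 4, 4.68, 4.24 and 5.31 FPKM at day 21 and 5.91 to 16 (median 9.33) at day 7, without overlap (log2 fold change -0.84 ± 0.19 SE, adjusted p = 0.0189). Arntl was at 0.599, 0.459, 0.737, 0.938 and 0.214 FPKM at day 21 and 0.389 to 1.22 (median 0.997) at day 7 and did not pass (log2 fold change -0.29, adjusted p = 0.216). Dbp, Nr1d1 and Ciart kept their calls in every fit without 1 sample, and 4 to 8 clock genes were called in those fits. Bringing samples to the same total left 2 calls and a list median of -0.03, and Ciart kept its call there.

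The promoters of the 4 clock genes that rose were searched on both strands for CACGTG, the E-box bound by BMAL1 and CLOCK, and for CACGTT. The windows ran from 250 bases before to 50 after each RefSeq gene start on GRCm38.p6, and all 4 genes were in the table. Ciart held CACGTG 3 times, 116, 58 and 44 bases before the start, while 7.15% of the 32851 promoters in the table held it at least once. Nr1d1 held 1 match to CACGTT, read as AACGTG 28 bases before the start, while 4.68% of all promoters held this motif. For Nr1d1 alone, the bases checked just after the RefSeq start were in no GENCODE M21 transcript of the gene. Its distance therefore rests on the RefSeq start only. Neither motif occurred in the windows of Dbp and Nr1d2. The Ciart and Nr1d1 windows are shown because they belong to the clock genes with matches, with the matches in capitals, Ciart at chr3:95882179-95882478 and Nr1d1 at chr11:98775328-98775627, both on the minus strand.
Ciart: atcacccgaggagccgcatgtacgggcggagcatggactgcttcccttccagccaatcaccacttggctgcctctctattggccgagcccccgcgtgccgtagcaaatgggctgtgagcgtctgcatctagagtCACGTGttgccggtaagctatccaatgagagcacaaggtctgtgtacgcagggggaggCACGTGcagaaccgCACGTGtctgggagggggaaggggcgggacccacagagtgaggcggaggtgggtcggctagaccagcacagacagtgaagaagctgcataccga
Nr1d1: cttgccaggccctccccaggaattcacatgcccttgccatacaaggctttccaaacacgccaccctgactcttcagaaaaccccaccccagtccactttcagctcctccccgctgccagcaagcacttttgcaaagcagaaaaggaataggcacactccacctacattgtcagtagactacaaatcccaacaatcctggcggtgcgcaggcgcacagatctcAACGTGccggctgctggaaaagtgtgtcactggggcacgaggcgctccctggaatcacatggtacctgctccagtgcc

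**Figure D4:**
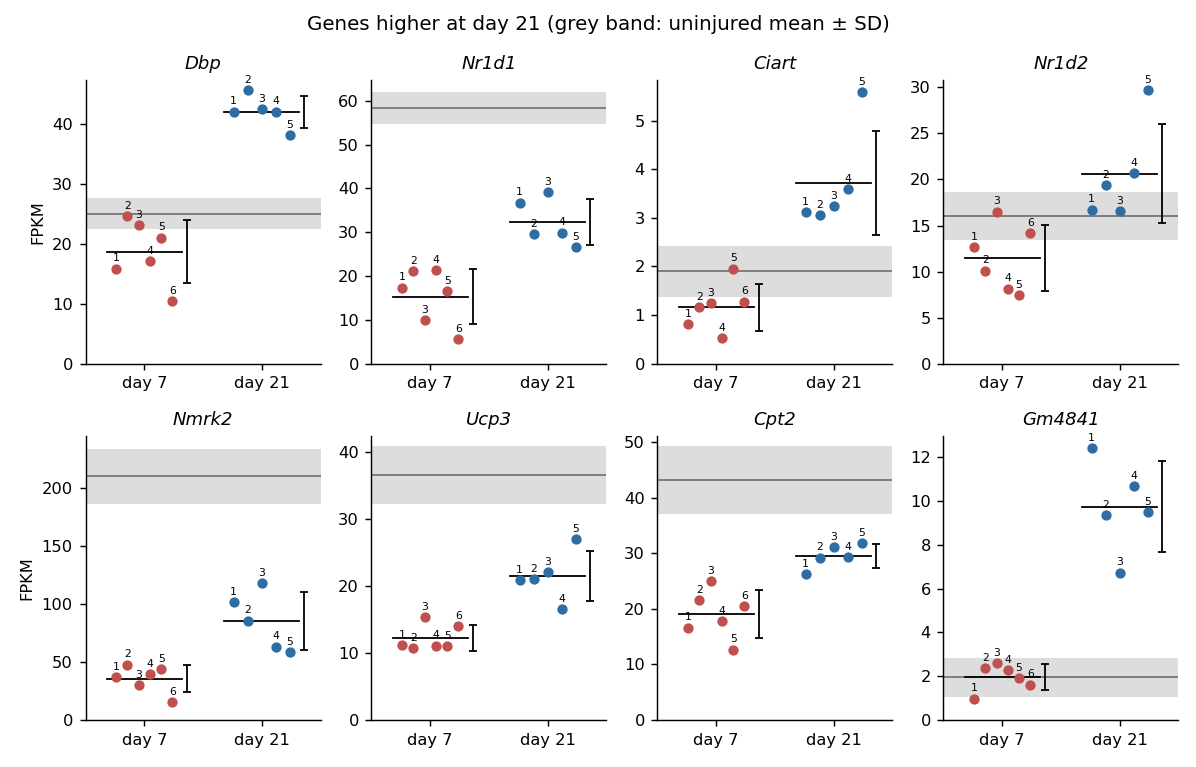
FPKM on the y axis for 8 genes that rose, with 1 numbered point per sample for day 7 (red, n = 6) and day 21 (blue, n = 5), bars at the means, error bars of 1 SD and a grey band for the uninjured mean ± SD (n = 5). Dbp, Ciart and Gm4841 at day 21 lie above the band, whereas Nr1d1, Nmrk2, Ucp3 and Cpt2 lie between day 7 and the band.

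The largest rise of all tested genes belonged to a noncoding RNA, which was picked for description after its values were seen because the rule for named genes took only protein-coding ones. B230312C02Rik, a lincRNA at chr2:180370491-180385885 on the minus strand, was at 27.1, 17.9, 14.6, 45.8 and 38.9 FPKM at day 21 and 0.99 to 4.94 (median 2.49) at day 7. No sample overlapped (log2 fold change 2.97 ± 0.37 SE, adjusted p = 0.000162; exact permutation p = 0.00216), and the gene passed in every alternative fit, the one with only the 11 samples included. Its day 21 mean of 28.9 ± 13.3 was next to the 25.7 ± 6.4 FPKM (SD, n = 5 each) without injury. On the other strand the table places Mir1a-1 at 3162 bases and Mir133a-2 at 12493 bases beyond its 5′ end. These encode miR-1 and miR-133a, the main microRNAs of striated muscle, whose mature forms poly-A selected libraries do not measure.

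Another lincRNA, Gm48395, rose far above its uninjured level, also noted after the values were seen. It was at 43.5, 43.7, 25.8, 28.8 and 13.8 FPKM at day 21 and 9.8, 15.3, 0, 10.4, 2.01 and 2.15 in day 7 replicates 1 to 6, against 1.82 ± 1.75 (SD, n = 5) without injury, and only replicate 2 of day 7 overlapped (log2 fold change 2.53 ± 0.52 SE, adjusted p = 0.0101). 2310008N11Rik rose without overlap, with 0 reads in replicates 3 and 6 of day 7 (log2 fold change 1.87, adjusted p = 0.0159).

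Gm4841, predicted to encode an interferon-inducible GTPase, had the largest increase among separated protein-coding genes. It was at 12.4, 9.34, 6.72, 10.7 and 9.5 FPKM at day 21 and 0.971 to 2.58 (median 2.09) at day 7, with 1.94 ± 0.91 (SD, n = 5) in uninjured muscle (log2 fold change 1.87 ± 0.33 SE, adjusted p = 0.00327). The gene belongs to a family of close copies, so reads could have been assigned between them. Aldh3a1, an aldehyde dehydrogenase, was at 9.67, 9.4, 4.7, 15.2 and 0.646 FPKM at day 21 and 0.181 to 2.13 (median 0.735) at day 7 (log2 fold change 1.94 ± 0.36 SE, adjusted p = 0.00429), with replicate 5 of day 21 inside the day 7 range and 0.0714 ± 0.0839 FPKM (SD, n = 5) without injury; it too was chosen after its values were seen.

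Several further genes of varied function rose. Crhr2, the muscle receptor for urocortins, was at 14.3, 14.8, 16.9, 11.2 and 22.9 FPKM at day 21 and 3.45 to 10.9 (median 7.73) at day 7, without overlap (log2 fold change 1.07 ± 0.21 SE, adjusted p = 0.008). S100a1, a calcium-binding protein of striated muscle, rose from 178 ± 59.2 (SD, n = 6) to 328 ± 33.9 FPKM (SD, n = 5; log2 fold change 0.94, adjusted p = 0.044), Ntf5 (neurotrophin 4) from 2.51 ± 1.06 (SD, n = 6) to 5.56 ± 0.899 (SD, n = 5; log2 fold change 0.94, adjusted p = 0.0394), and Rab3a, a GTPase of vesicle release, from 15.1 ± 6.36 (SD, n = 6) to 27.7 ± 3.14 (SD, n = 5; log2 fold change 0.93, adjusted p = 0.0463). The phosphohydrolase Nudt4 and the kinase-like Rps6kl1 rose by log2 fold changes of 0.81 and 0.86. Ky, needed for the upkeep of muscle fibres, and the phosphatase Dupd1, both picked out after their values were seen, rose as well (log2 fold change 1.46 and 1.44). In Ky replicate 3 of day 7, at 37.2 FPKM, lay inside the range of day 21, and in Dupd1 replicate 5 of day 21, at 37.9, lay inside that of day 7. Except for Crhr2, the calls in this paragraph were lost when some single samples were left out, and all but that of Crhr2 when samples were brought to the same total.

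Genes of the contractile apparatus did not pass. Of 25 adult fast sarcomere genes none was called by limma or voom. At an unadjusted p under 0.05, 10 were higher and 0 lower, against 9.46% and 12.2% of all genes. The FPKM summed over the list ran from 34520.0 to 115400.0 in the day 7 samples and from 94120.0 to 114000.0 in those of day 21. The list median of 0.64 went to 0.20 with quantile normalization and 0.12 when samples were brought to the same total, positive in both. Single members changed sign, Acta1 from 0.51 to -0.37 and Ckm from 0.23 to -0.38 with quantile normalization. Titin (Ttn) was at 51.4, 47.1, 46.2, 48.5 and 58 FPKM at day 21 and 30.7, 35.7, 62.7, 21.3, 17.6 and 55.9 in replicates 1 to 6 of day 7 (log2 fold change 0.56, adjusted p = 0.184), with replicates 3 and 6 highest. Of 7 developmental sarcomere genes 0 were called by either tool, with 1 higher and 1 lower at an unadjusted p under 0.05. Of 13 slow sarcomere genes 0 were called by either tool, with 1 lower at an unadjusted p under 0.05, and of 24 myogenic and fusion genes 0 were called by either, with 1 lower.

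The embryonic myosin gene was high in some day 7 samples and low in others. Myh3, the embryonic myosin heavy chain of newly formed fibres, was at 38, 24.1, 0.436, 49.7, 20.1 and 0.967 FPKM in day 7 replicates 1 to 6 and 4.13, 4.65, 3.63, 2.4 and 1.02 at day 21 (log2 fold change -1.61, adjusted p = 0.158). Replicates 1, 2, 4 and 5 of day 7 were above every sample of day 21, and replicates 3 and 6 were below. Actc1, the cardiac actin expressed in immature fibres, was at 228 ± 199 FPKM at day 7 (SD, n = 6) and 444 ± 249.8 at day 21 (SD, n = 5; log2 fold change 1.17, adjusted p = 0.181).

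Sln, encoding sarcolipin, an inhibitor of the calcium pump, had one of the largest differences without being called (log2 fold change 2.13 ± 1.08 SE, adjusted p = 0.249). It was at 655, 466, 0.401, 972, 28.1 and 7.37 FPKM in day 7 replicates 1 to 6 and 433, 531, 303, 265 and 125 at day 21, and the group means were alike at 355 ± 409 (SD, n = 6) and 332 ± 157 (SD, n = 5). Replicates 1 and 4 of day 7 were above all of day 21, replicate 2 was within its range, and replicates 3, 5 and 6 were below all of day 21, against 1.83 ± 0.59 without injury (SD, n = 5).

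Krt18, a keratin of simple epithelia that is also found in injured muscle, was divided in the same way, at 113, 91.8, 0.0408, 381, 2 and 2.29 FPKM in day 7 replicates 1 to 6 and 133, 159, 73.6, 116 and 17.9 at day 21 (log2 fold change 2.13, adjusted p = 0.215). Its partner keratin Krt8 gave 1.93 (adjusted p = 0.185). The intermediate filament Vim, of mesenchymal cells, was the 1 called gene of 9 keratin and intermediate filament genes (log2 fold change -1.11, adjusted p = 0.037), and its call was lost in 6 of the 11 fits without 1 sample.

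The muscle acetylcholine receptor, which spreads along fibres after denervation, was not called in its alpha subunit. Chrna1 was at 70.5, 55.3, 6.21, 62, 31.9 and 7.36 FPKM in day 7 replicates 1 to 6 and 42, 43.5, 37.1, 47.2 and 4.94 at day 21, against 3.79 ± 0.811 without injury (SD, n = 5), and its log2 fold change of 0.05 ± 0.56 SE changed sign under many settings. Replicates 3 and 6 of day 7 and replicate 5 of day 21 were low. Chrnd, the delta subunit, was low in the same samples (log2 fold change 0.39, adjusted p = 0.662). Rrad, a small GTPase that inhibits calcium channels, was at 56.9, 98.5, 3.94, 101, 33.9 and 2.24 in day 7 replicates 1 to 6 and 60.1, 94.6, 50.4, 84.6 and 12.6 FPKM at day 21 (log2 fold change 0.96, adjusted p = 0.436). Of 11 denervation response genes, of 17 genes of the neuromuscular junction and of 20 of calcium handling, none was called by limma or voom. At an unadjusted p under 0.05, 0, 2 and 7 of them were higher and none lower, against 9.46% and 12.2% of all genes.

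**Figure D5:**
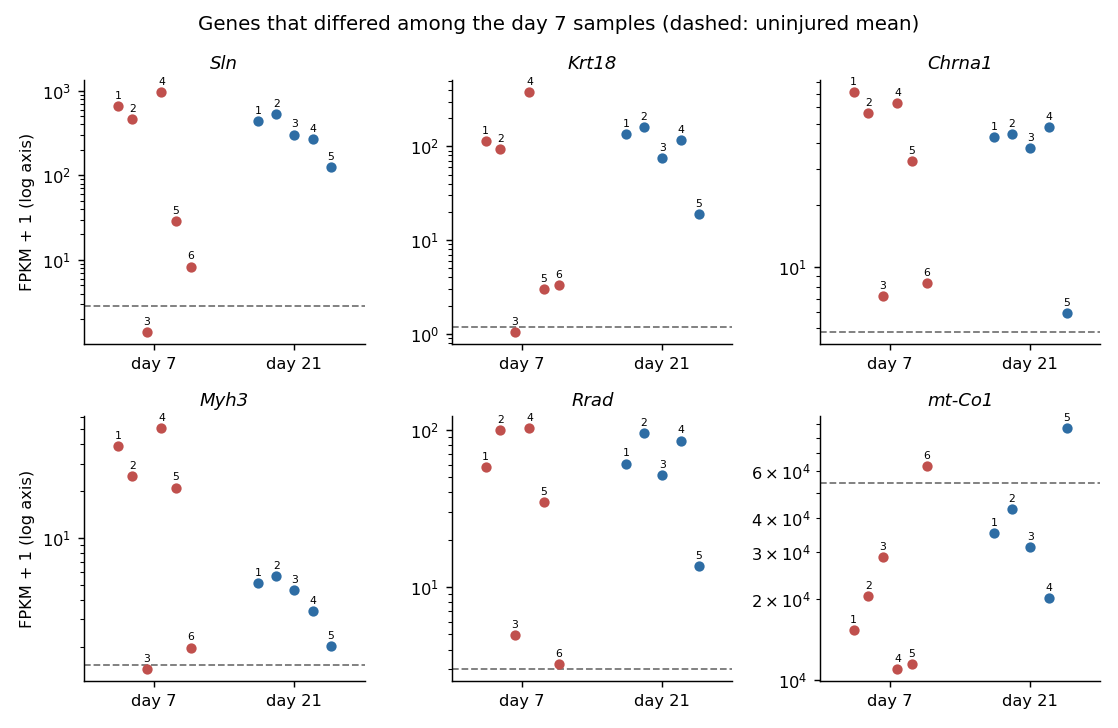
FPKM + 1 on a log y axis for Sln, Krt18, Chrna1, Myh3, Rrad and mt-Co1, with 1 numbered point per sample for day 7 (red, n = 6) and day 21 (blue, n = 5) and a dashed line at the uninjured mean. Replicates 3 and 6 of day 7 lie low in the first 5 genes and highest of their day in mt-Co1, and replicate 5 of day 21 is the lowest day 21 sample of the first 5.

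Of 11 Schwann cell genes, 0 were called by limma or voom, with 1 lower at an unadjusted p under 0.05. The mitochondrial message mt-Co1 was highest in replicate 6 of day 7 and replicate 5 of day 21 (log2 fold change 0.92, adjusted p = 0.2). The part of fibre content in the results above was not tested.

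Endothelial, smooth muscle, tendon, erythroid and skin lists had no called gene by limma or voom. At an unadjusted p under 0.05, 3 of 20 endothelial genes were higher and 2 lower, 3 of 16 smooth muscle and pericyte genes were higher, 1 of 8 tendon genes was higher, 0 of 5 erythroid genes differed and 1 of 3 tested skin keratinocyte genes was lower. Of all genes, 9.46% were higher and 12.2% lower at that level. Of the 9 skin genes 6 were not expressed highly enough to test. The transcription factor Cebpa, which serves both adipocytes and myeloid cells, was the 1 called gene of 15 adipocyte genes, at 2.7, 2.99, 3.28, 1.72 and 2.85 FPKM at day 21 and 5.24 to 29.1 (median 6.25) at day 7, without overlap (log2 fold change -1.42, adjusted p = 0.0138). Anxa1, of a protein of membrane repair and of the resolution of inflammation, was the 1 that fell among 15 stretch and repair genes (log2 fold change -1.05, adjusted p = 0.0418; call lost in 6 of the 11 fits without 1 sample), with 14.3, 15.1, 17.8, 19.5, 55.5 and 17.9 FPKM in day 7 replicates 1 to 6.

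Of 88 cytosolic ribosomal protein genes none was called by limma or voom, 1 was higher and 3 were lower at an unadjusted p under 0.05, and the median was -0.07. Of 37 proteasome subunits none was called by either and 1 was lower at that level, while of 77 mitochondrial ribosomal proteins none was called by either and 31 were higher, against 9.46% of all genes; their median of 0.32 became -0.15 when samples were brought to the same total. Of 20 immediate early genes 0 were called and 0 reached an unadjusted p under 0.05. Of 20 genes of polyamine and amino acid stress 0 were called by either tool. At that unadjusted level 2 of them were higher and 4 lower, against 9.46% and 12.2% of all genes. Of 22 heat shock genes limma called none, voom called 1, and 1 was higher and 1 lower at an unadjusted p under 0.05.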

How the data were processed

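The authors aligned poly-A RNA-seq reads of 27 muscles with HISAT2 2.0.5, counted them per gene with featureCounts 1.5.0-p3 and deposited 1 table of FPKM; no per-sample column was left out. FPKM times gene length, divided by 1 factor per sample, gave whole reads (tolerance 0.02) for 100% of the values of up to 200 reads in every sample, and the factor implied a library size of 0.776 to 1.44 times the sum of reads in the 11 samples. Groups came from titles. FPKM was transformed to log2(FPKM + 1) and fitted with limma 3.58.1 (R 4.3.3; 27 samples, group means, variance trend, two-sided tests). Single genes were also tested by exact permutation. The fit was tested on made-up changes with known answers. It recovered 80 of 100 genes shifted by 1 on the log2 scale and 100 of 100 shifted by 2, with 11 false calls. The made-up values had 1 spread per gene for all groups, so the larger spread at day 7 was not covered. Positions refer to GRCm38 (GENCODE M21). Tables and figures used Python 3.11.15, pandas 2.3.3, numpy 2.4.6 and matplotlib 3.10.9.

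The genes named were drawn from the 15 largest increases and 15 largest decreases among called, separated protein-coding genes, up to 4 called members of each list (or, with none called, its most abundant member), and genes the study names, some of which are left out; others are values of list members or were chosen after their values were seen. Members and lists were chosen with earlier results of these data known. Alternatives were pseudocounts of 0.1 and 0.5, no filter, an FPKM of at least 1, the filter over 11 samples, quantile, common-sum and median-ratio scaling, only 2 groups, no trend, sample quality weights, voom on the recovered reads, replicate blocks and each sample left out. Results that need items withheld from the text are not reported here.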

Additional observations from a re-analysis of the deposited data

Results flagged for a closer look

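A sample was marked where its distance to the nearest sample of its group exceeded Dixon's 95% limit on the log2(FPKM + 1) scale, which chance exceeds in about 1 of 20 groups; 22 of 222 tests over the named genes did so. Replicate 5 of day 7 was the highest of its group in Spp1 (493 FPKM, next 28.6), Ccl6 (123, next 13.5), Anxa1 (55.5, next 19.5), Ccl9 (40.2, next 6.23), Pgam1 (37.9, next 9.2), Ccr2 (9.56, next 2.09) and Cdk1 (8.56, next 1.65), and the lowest in Arntl (0.389, next 0.905). Replicate 6 of day 7 was lowest in Cthrc1 (7.0, next 21.4) and Ctsk (10.2, next 23.4), and replicate 2 of day 7 in Hp (2.3, next 20.0).

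At day 21, replicate 5 was the lowest in Chrna1 (4.94, next 37.1), Chrnd (3.43, next 11.2), Dupd1 (37.9, next 134), Laptm5 (0.922, next 2.55) and Tgfbr2 (2.15, next 3.37), and the highest in Ciart (5.59, next 3.59). Replicate 4 was the lowest in C1qc (5.03, next 7.18), Ccl8 (1.04, next 4.06), Ndn (1.75, next 2.7) and Spi1 (0.296, next 1.43), and replicate 3 in Pfkfb3 (3.68, next 7.85).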

How the results depend on the processing

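Against 329 genes (73 higher, 256 lower), no filter gave 157 (34 and 123), the common sum 800 (16 and 784), only the 2 groups 19 (6 and 13), sample quality weights 1211 (440 and 771), quantile normalization 325 (114 higher), and the other pseudocounts, filters, median-ratio scaling, the fit without a trend and voom 283 to 417. Leaving out 1 sample gave 138 to 1261 genes, 27 to 500 higher and 105 to 761 lower, the most without replicate 6 of day 7, then 886 without replicate 3, and the fewest without replicate 4 of day 7. Without replicates 5 and 6 of day 7, a choice made after seeing the data, 419 were called.

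Replicate numbers were not shown to pair the samples, as the same-numbered deviations of the 2 time points correlated at -0.082 to 0.114. With the replicate number as a block 1126 genes were called (484 higher and 642 lower), and with the letter of the description 227 (43 higher). Among the samples of day 21, only replicate 1 correlated best with the day 7 sample of its own number. Replicate 5 of day 21, for example, was at -0.009 with its own number and 0.31 with replicate 6 of day 7.

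Of 82 called genes followed through all settings, 38 passed without any 1 sample and 11 in all settings, namely B230312C02Rik, Cdkn2c, Ciart, Col5a2, Cthrc1, Fn1, Fstl1, Gm4841, Ogn, Postn and Sfrp2; none reversed. Calls were lost by 70 with only the 2 groups, 37 without a filter, 19 under the common sum and 19 with voom. Without 1 sample, 39 lost theirs without replicate 4 of day 21, 38 without replicate 4 of day 7 and 0 without replicate 6 of day 7.

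Genes not called changed sign as follows. With quantile normalization the values were -0.37 for Acta1, -0.14 for Chrna1, -0.38 for Ckm, -0.063 for Mylpf, -0.20 for Tnnt3 and -0.12 for mt-Co1. With the common sum they were -0.0247 for Acta1, -0.47 for Chrna1, -0.11 for Chrnd, -0.31 for Ckm, -0.17 for Col4a2 and -0.19 for Thra. Chrna1 was at -0.0416 with quality weights, -0.17 with the replicate block by number and -0.34 without replicates 5 and 6 of day 7, where Chrnd was at -0.002. Without 1 sample Chrna1 ran from -0.35 to 0.62. The causes were not tested. Ccl12, S100a8 and P4ha3 had 0 reads in some samples of day 21.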
